A study of Mus musculus with 48 samples.

Results

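Loxapine is a tricyclic antipsychotic that blocks dopamine and serotonin receptors. It was given at 10 µM for 24 h to STHdh Q111 cells, a conditionally immortalized mouse striatal progenitor line that is homozygous for a knock-in allele of huntingtin with an expanded CAG repeat. The comparison described here holds 6 of the 48 samples of the series, 3 with loxapine and 3 with the DMSO vehicle, and they were chosen by their labels alone. Vehicle and compound were both given in serum-free medium, and all 6 samples come from 1 line, so nothing here describes the spread between lines. The series covers 16 conditions with 3 samples each: 14 compounds in Q111 cells, vehicle in Q111 cells, and vehicle in STHdh Q7 cells, the line with wild-type huntingtin. The labels do not say that replicates were separate cultures beyond their separate collection days, so the p-values measure the spread between samples. That spread was estimated per gene over all 48 samples and 16 conditions, not from the 6 compared samples alone. One value per gene and sample was deposited, a normalized abundance on the log2 scale. Every level below is such a value, every difference is a difference of these values, and a difference of 1 is a 2-fold change. Low genes hardly varied between samples, so differences of low genes are understated by an unknown amount.

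The conditions of both controls and loxapine were collected once on each of 3 days, in 1 of 3 time slots. The loxapine samples came from time 3 on day 1, time 1 on day 2 and time 2 on day 3, and the vehicle samples from time 1, time 2 and time 3, so no slot held both. Nicotinamide at 0.5 nM and nortriptyline at 1 nM were collected in the same 3 slots as loxapine. Their 6 samples served as a second control, with the limit that they are compounds and not vehicle. Over all samples the values ran from -2.34 to 18.62, and the depth behind them is unknown. The correlation across genes between the 3 loxapine samples was 0.9998 for the lowest and the highest pair alike, and 0.9996 to 0.9998 between the vehicle samples. Among the markers of the labelled cell type, Vim read 15.45 ± 0.08 (SD, n = 3) with loxapine, Foxp1 9.84 ± 0.04, Nes 5.14 ± 0.09 and Sox2 4.78 ± 0.04. Neuronal Rbfox3 (-2.13), astrocytic Gfap (-0.94) and microglial Aif1 (-2.18) were at or near the floor of the scale. Other markers on the same lists were not, with loxapine means of 7.90 for neuronal Map2, 6.97 for astrocytic Slc1a3, 8.03 for microglial Tmem119 and 8.77 for endothelial Pecam1, and the leukocyte gene Ptprc read 10.23, 9.87 and 10.00. The summed level of the fibroblast and pericyte markers was 15.13 to 15.30 with loxapine and 15.23 to 15.42 with vehicle on the log2 scale, and their part in the results was not tested.

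As background, a cell that senses too little cholesterol in the endoplasmic reticulum (ER) releases transcription factors of the SREBP family, which switch on the enzymes that make sterols and fatty acids. A cell that senses amino acid shortage, misfolded protein or other stress slows general translation and makes the transcription factor ATF4, which switches on amino acid transporters, amino acid synthesis, tRNA synthetases and stress regulators such as CHOP and TRIB3. Basic, fat-soluble drugs collect in lysosomes, the acidic compartments where proteins and lipids are broken down, and lysosomal genes are in turn controlled by factors of the TFEB family.

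Loxapine changed many genes by small amounts. Of 13409 genes tested, 1360 (10.1%) were higher and 1578 (11.8%) were lower than with vehicle at an adjusted p below 0.05, by limma with Benjamini-Hochberg adjustment over all genes tested. Only 236 of these differed by more than 0.5, of which 172 were higher and 64 lower, and 17 by more than 1. Against the second control 1602 genes (11.9%) were higher and 1458 (10.9%) lower, or 1410 higher and 1695 lower when sample medians were made equal, so the larger side turned. The second control itself differed from vehicle, with 495 genes (3.69%) higher and 1137 (8.48%) lower, or 672 and 979 with equal medians. The number called against both controls in the same direction was 874 higher (6.52%) and 700 lower (5.22%), which is 53.6% of the calls against vehicle and 51.4% of those against the second control, and 7 genes were called in opposite directions. Of the 236 genes over 0.5, 206 were called against both. Of the remaining calls against vehicle, 659 (123 higher, 536 lower) were not called against the second control and were called the same way in the second control against vehicle.

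These counts depended on single samples. The 2938 calls against vehicle became 1715 without vehicle replicate 1 and 1909 without loxapine replicate 2. The 3060 calls against the second control became 1864 without loxapine replicate 3. The 1632 calls of the second control against vehicle became 334 without vehicle replicate 1, 672 without vehicle replicate 2 and 1051 without nicotinamide replicate 2. The 1574 genes called against both controls became 990 without loxapine replicate 2 and 991 without loxapine replicate 3.

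**Figure D1:**
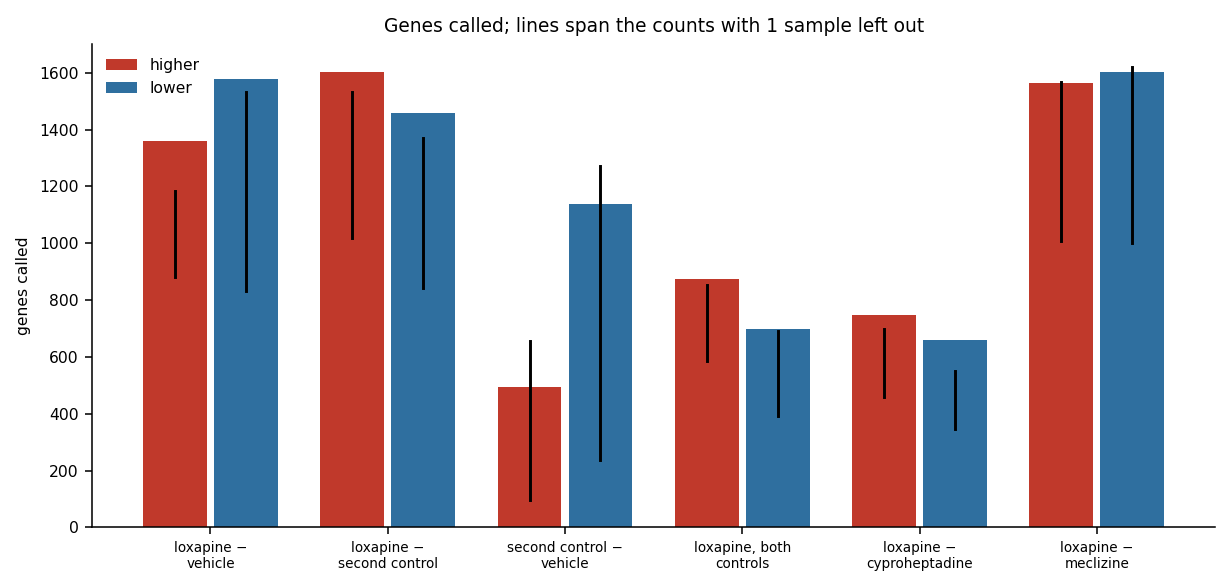
Number of genes called higher (red) and lower (blue) at an adjusted p below 0.05 in each comparison, with black lines that span the counts when 1 sample at a time is left out. The second control against vehicle had 495 genes higher and 1137 lower, and its lines reach down to the fit without vehicle replicate 1.

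Nearly all genes of sterol synthesis rose. In the mevalonate branch, which builds the isoprenoid precursors of cholesterol, 9 of 10 genes were higher with loxapine than with vehicle, none was lower, and the median difference was 0.49, beside a median of 0.00478 over all genes tested. In the steps from squalene to cholesterol 12 of 12 genes were higher, with differences of 0.38 to 0.85 and a median of 0.55. The same 9 and 12 genes were called against the second control, where the medians were 0.55 and 0.62, and both counts stayed at 9 and 12 with any 1 of the 6 samples left out. No gene of either list was called between the second control and vehicle. The mevalonate gene not called was Ggps1, which makes the isoprenoid used for protein prenylation, at -0.021 against vehicle.

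Mvd, the mevalonate diphosphate decarboxylase (GRCm38 chr8:122433601-122443422, minus strand), read 10.68, 10.80 and 10.81 in the loxapine samples and 9.83, 9.89 and 9.99 in the vehicle samples. All 3 loxapine samples lay above all vehicle samples and above the second control, which read 9.77 to 9.93. The difference from vehicle was 0.86 ± 0.10 (SE) with an adjusted p of 3.9e-07. Nsdhl, which removes a carbon from the sterol ring (chrX:72918557-72958514, plus strand), read 10.46, 10.48 and 10.58 with loxapine and 9.60, 9.67 and 9.71 with vehicle. Its second control values, 9.55 to 9.66, overlapped the vehicle values and lay below every loxapine sample, and the difference from vehicle was 0.85 ± 0.088 (adjusted p = 3.2e-08). Other members with large differences from vehicle were Pmvk at 0.82, Cyp51 at 0.79, Acat2 at 0.78, Msmo1 at 0.76, Lss at 0.74 and Idi1 at 0.63.

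Sterol sensing and transport genes moved in both directions. Of 22 tested, 9 were higher and 2 lower than with vehicle, the median was 0.10, and 7 of those higher were also higher than the second control. Insig1, which holds the SREBP complex in the ER and is itself an SREBP target, read 12.72, 12.71 and 12.73 with loxapine and 11.99, 12.14 and 12.04 with vehicle (0.67 ± 0.10, adjusted p = 9.1e-06). Mylip, a ubiquitin ligase that acts on lipoprotein uptake, was lower, at -0.45 and -0.41 against vehicle and the second control. Lrp1, an endocytic receptor, was lower than vehicle (-0.37) but not called against the second control (-0.078, adjusted p = 0.46). The count of higher genes in this list fell from 9 to between 4 and 6 when 1 of the 6 samples was left out, with 4 without loxapine replicate 2 or vehicle replicate 2, and the 7 higher than both controls became 4 to 6.

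Among the listed drug receptors, Tmem97, a membrane protein of the ER that binds many antipsychotic drugs, read 9.75, 9.73 and 9.71 with loxapine and 9.07, 9.23 and 9.28 with vehicle. The 3 loxapine samples lay above all vehicle and second control samples, and the difference from vehicle was 0.54 ± 0.078 (adjusted p = 5.6e-06). Of the 29 receptors listed, 8 were tested, 15 were below the minimum mean of 1 and 6 were not analysed here. The dopamine receptor gene Drd1 and the serotonin receptor gene Htr2a sat near the floor of the scale, with means of -2.18 and -2.23 over all samples. The histamine receptor gene Hrh1 read 1.14, 1.14 and 1.16 with loxapine and 1.10, 1.17 and 1.18 with vehicle, a difference of -0.0063 with a 95% interval of -0.08 to 0.067.

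The promoters of Hmgcs1 and Msmo1 are shown because these genes had the largest rises among called members of the sterol lists that hold the motif below. They come from RefSeq promoter sequences on GRCm38.p6, which held 676 of 879 listed symbols, and they were cut to the part that lies outside annotated exons or, where an exon reaches in, to 30 bases around the motif. The capitals mark TCACNCCA, a sterol regulatory element, searched on both strands of the 250 bases before each RefSeq start. It was found in 3.58% of all promoters and 3.26% of those of the genes tested. The lists held it in 1 of 7 of the mevalonate branch, 1 of 10 of the squalene list and 2 of 16 of the sterol sensing list. The match was part of the choice of these 2 genes, and Mvd, Nsdhl, Pmvk and Cyp51, which rose more, held none. The Hmgcs1 stretch is chr13:119690101-119690350 on the plus strand, with the match at position -137 from the start, and the gene rose by 0.42. The Msmo1 stretch is chr8:64733737-64733766 on the minus strand, with the match at -177.
Hmgcs1: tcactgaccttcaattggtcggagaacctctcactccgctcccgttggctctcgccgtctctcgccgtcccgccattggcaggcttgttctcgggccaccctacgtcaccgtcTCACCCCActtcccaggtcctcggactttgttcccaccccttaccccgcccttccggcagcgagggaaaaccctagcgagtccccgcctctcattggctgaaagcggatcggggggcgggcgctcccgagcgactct
Msmo1: tctcactattcTCACTCCAtccgcgcagcc

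Most fatty acid synthesis genes rose, by less than the sterol genes. Of 23 tested, 15 were higher and 3 lower than with vehicle (median 0.31), and 18 were higher and 1 lower than the second control (median 0.35), while 6 were lower in the second control than in vehicle. Hsd17b12, a reductase of very long chain fatty acid synthesis, read 10.94, 10.97 and 11.03 with loxapine and 10.38, 10.46 and 10.41 with vehicle (0.56 ± 0.071, adjusted p = 6.6e-07). Acss2, which makes acetyl coenzyme A from acetate, rose by 0.53, the elongase gene Elovl5 by 0.46 and Acsl3, which activates long fatty acids, by 0.43. Acacb, the acetyl coenzyme A carboxylase that sits at mitochondria and restrains fatty acid import, was lower, with 6.48, 6.56 and 6.58 against 7.12, 6.87 and 6.89 (-0.42, adjusted p = 0.0013).

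**Figure D2:**
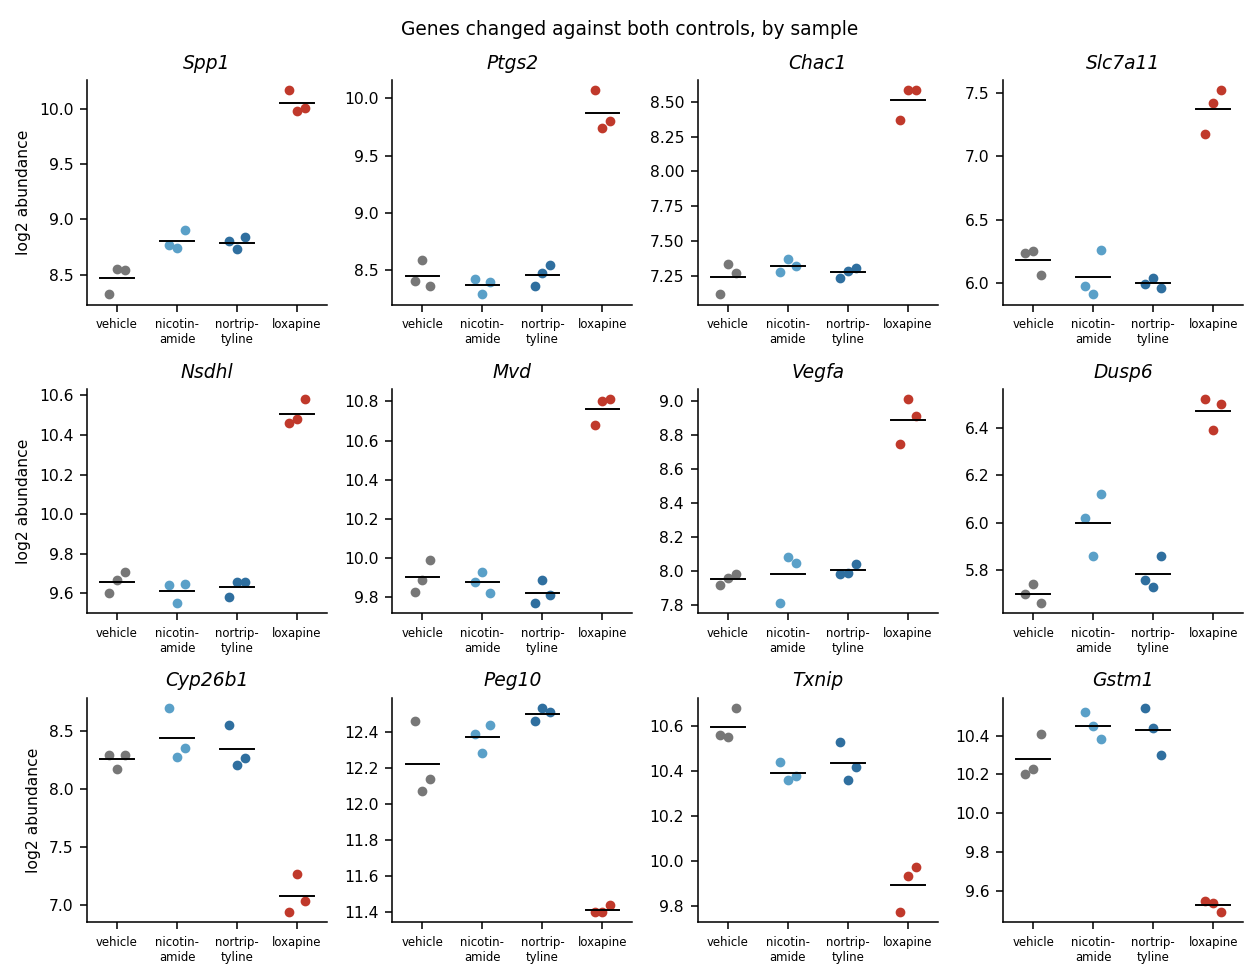
Log2 abundance of 12 genes called against both controls, with 1 point per sample for vehicle (grey), nicotinamide and nortriptyline (blue) and loxapine (red), and a black line at each mean of 3 samples. The vertical axes differ between genes and do not start at 0, and in every panel the 3 loxapine points lie outside the range of the other 9. For Spp1, Ptgs2, Chac1, Slc7a11, Cyp26b1, Peg10, Txnip and Gstm1 this lack of overlap was part of how they were chosen.

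Part of the ATF4 programme rose, most often among its regulators and the serine and one-carbon enzymes. Of 24 ATF4 and CHOP regulators, 17 were higher and none lower than with vehicle (median 0.37), 17 were higher than the second control (median 0.32), and 15 were higher than both. With 1 of the 6 samples left out the count against vehicle was 12 to 15, and that against both controls was 9 without loxapine replicate 2 and 11 to 14 otherwise. Atf4 itself (chr15:80255184-80257541, plus strand) read 11.68, 11.81 and 11.74 with loxapine and 10.81, 10.95 and 10.97 with vehicle. The loxapine samples lay above all controls, the second control reading 10.98 to 11.13, and the difference from vehicle was 0.83 ± 0.090 (adjusted p = 5.7e-08).

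Chac1, which degrades glutathione and is a target of ATF4 (chr2:119351229-119354381, plus strand), read 8.37, 8.58 and 8.58 with loxapine and 7.12, 7.34 and 7.27 with vehicle. Its second control samples read 7.24 to 7.37, which overlapped the vehicle values, and every loxapine sample lay above both. The difference was 1.27 ± 0.14 against vehicle (adjusted p = 6.5e-08) and 1.21 against the second control. Trib3, a pseudokinase that feeds back on this programme, rose by 1.25 ± 0.21 (8.06, 8.28 and 8.26 against 7.06, 6.96 and 6.83), and the stress factors Atf3 and Cebpb by 0.97 and 0.61. Ifrd1, a transcriptional coregulator whose messenger RNA is stabilized under ER stress, read 10.66, 10.70 and 10.69 with loxapine and 9.65, 9.69 and 9.66 with vehicle (1.02 ± 0.13, adjusted p = 4.4e-07).

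Among amino acid transporters 7 of 17 were higher and none lower than with vehicle (median 0.19), and all 7 were also higher than the second control, a count that became 4 without loxapine replicate 3 and was 6 or 7 otherwise. Slc7a11, the cystine importer (chr3:49892526-50443614, minus strand), read 7.18, 7.42 and 7.52 with loxapine and 6.24, 6.25 and 6.06 with vehicle. The second control read 5.91 to 6.26 and overlapped vehicle but not loxapine, and the difference was 1.19 ± 0.23 against vehicle (adjusted p = 0.00026) and 1.35 against the second control (adjusted p = 3.9e-06). Its partner chain Slc3a2 rose by 0.52, the cationic carrier Slc7a1 by 0.53, the glycine carrier Slc6a9 by 0.44 and the large neutral carrier Slc7a5 by 0.43. Loxapine replicate 1 was the lowest of the 3 loxapine samples for each of these 5 genes.

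Of 14 serine and one-carbon genes 10 were higher and 1 lower than with vehicle (median 0.27). The mitochondrial folate enzymes Aldh1l2 and Mthfd2 rose by 0.72 and 0.67, Psph, which makes the last step to serine, by 0.68, and Shmt2, which splits serine to glycine, by 0.57. Of 17 amino acid enzymes 6 were higher and none lower (median 0.13). Asns, the asparagine synthetase, read 10.00, 10.30 and 10.29 with loxapine and 9.40, 9.45 and 9.51 with vehicle (0.75 ± 0.11, adjusted p = 6.2e-06), and the branched-chain transaminase gene Bcat1 rose by 0.71. Of 20 cytosolic tRNA synthetases 12 were higher and none lower (median 0.29, with Cars at 0.51, Tars at 0.46 and Gars at 0.41), and 11 were higher than both controls. Of 17 mitochondrial tRNA synthetases 1 was called against vehicle (Yars2 at 0.21, adjusted p = 0.046, limma) and none against the second control, with a median of 0.016 against vehicle. The Yars2 call held in 1 of the 6 fits with 1 sample left out (0.11 to 0.27), and it was lost with collection time as a term, with no minimum mean and with only the compared conditions in the fit.

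The promoters of Chac1 and Slc7a11 are shown because these genes had the largest rises in their lists that also hold the motif TGATGNAA, the element bound by ATF4 with a C/EBP partner. This motif was found in 3.53% of all promoters and 1.99% of those of the genes tested, against 4 of 22 of the ATF4 and CHOP regulators, 3 of 13 of the amino acid enzymes, 2 of 14 of the amino acid transporters and 0 of 11 of the serine and one-carbon enzymes. A match is a description of the letters and not of binding. The Chac1 stretch is chr2:119350992-119351228 on the plus strand, with 1 match, read on the opposite strand, at position -193 from the start. The Slc7a11 stretch is chr3:50443615-50443863 on the minus strand, with matches at -66 and -47, the first in the direction of the gene and the other opposite to it.
Chac1: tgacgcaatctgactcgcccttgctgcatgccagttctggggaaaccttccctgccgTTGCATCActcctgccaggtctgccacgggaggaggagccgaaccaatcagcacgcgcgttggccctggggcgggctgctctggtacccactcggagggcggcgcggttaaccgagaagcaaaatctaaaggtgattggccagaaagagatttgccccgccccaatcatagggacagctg
Slc7a11: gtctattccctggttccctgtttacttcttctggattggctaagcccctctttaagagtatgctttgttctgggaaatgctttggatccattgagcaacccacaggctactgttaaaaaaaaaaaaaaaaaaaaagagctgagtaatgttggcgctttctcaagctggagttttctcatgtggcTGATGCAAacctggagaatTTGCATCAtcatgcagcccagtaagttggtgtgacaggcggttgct

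Most ER chaperone genes rose, by smaller amounts. Of 25 genes of the ER chaperone and unfolded protein response list 18 were higher and none lower than with vehicle (median 0.25), and 14 were higher than both controls. The latter count became 9 without loxapine replicate 1 or 3 and 11 to 13 otherwise, and 1 member was lower than vehicle without loxapine replicate 3. Hspa5, the main ER chaperone BiP, read 13.18, 13.02 and 13.12 with loxapine and 12.66, 12.71 and 12.71 with vehicle (0.42 ± 0.084, adjusted p = 0.00044). Every loxapine sample lay above every control sample, the second control reading 12.59 to 12.73. The disulfide isomerase gene Pdia6 rose by 0.43, Hsp90b1 by 0.40, the oxidase gene Ero1l by 0.39 and the lectin chaperone gene Calr by 0.31. Of 18 genes of the heat shock chaperone list 4 were higher and none lower, with a median of 0.032. They were the cytosolic Hsp90aa1 at 0.25 and Hspa4 at 0.20, and the mitochondrial chaperonin genes Hspd1 at 0.25 and Hspe1 at 0.24. The count of 4 ran from 1, without loxapine replicate 3, to 3 when 1 sample was left out.

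Lysosomal genes rose in part. Of 51 lysosomal hydrolases and membrane proteins 19 were higher and 2 lower than with vehicle (median 0.14), 25 were higher and 3 lower than the second control (median 0.15), and 17 were higher than both. The count of 19 became 11 without vehicle replicate 2 and 12 without vehicle replicate 1, and was at most 17 in the 6 fits with 1 sample left out, while that of 17 became 11 without loxapine replicate 3 or vehicle replicate 2. Ctsl, a cysteine protease, read 12.63, 12.70 and 12.76 with loxapine, 12.22, 12.21 and 12.20 with vehicle and 12.29 to 12.38 in the second control. The 3 groups did not overlap, and the difference was 0.49 ± 0.063 against vehicle and 0.36 against the second control (adjusted p = 9.5e-07 and 6.2e-06). Gla, the galactosidase that clears globotriaosylceramide, read 9.31, 9.30 and 9.30 against 8.88, 8.81 and 8.84 (0.46 ± 0.064), and the aspartic protease gene Ctsd rose by 0.42 and the sialidase gene Neu1 by 0.35. Gpnmb, a membrane glycoprotein gene controlled by the TFEB family, read 9.21, 9.19 and 9.04 with loxapine and 8.62, 8.61 and 8.50 with vehicle (0.57 ± 0.090, adjusted p = 2e-05).

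Subunits of the vacuolar ATPase, the pump that acidifies lysosomes, were higher for 9 of 18 and lower for 1 (median 0.14), with Atp6v0b at 0.44, Atp6ap2 at 0.40 and Atp6v1c1 at 0.29. Against both controls 6 were higher, and against vehicle 4 were higher without vehicle replicate 1 and 5 without loxapine replicate 1. Of 17 genes of the TFEB and folliculin axis 5 were higher and none lower than with vehicle, and 2 were higher than both controls. The count of 5 became 2 without loxapine replicate 2 and 3 or 4 without any other of the 6 samples. Tfeb itself read 7.25, 7.12 and 7.13 with loxapine, 7.40, 7.21 and 7.42 with vehicle and 7.34 to 7.53 in the second control. Its loxapine and vehicle samples overlapped and the difference was not called (-0.18, adjusted p = 0.17), whereas it was lower than the second control (-0.28, adjusted p = 0.011).

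Autophagy genes showed no common direction against vehicle. Of 42 tested, 5 (11.9%) were higher and 7 (16.7%) lower than with vehicle, beside 10.1% and 11.8% of all genes tested, with a median of 0.0049. Against the second control 11 were higher and 3 lower (median 0.027), beside 11.9% and 10.9% of all genes tested. The second control in turn had 7 of them lower than vehicle, beside 8.48% of all genes tested. Against both controls 5 were higher and 2 lower, and the 5 became 2 or 3 with 1 of the 6 samples left out. The 5 genes higher than vehicle became 2 without loxapine replicates 2 or 3 or vehicle replicates 1 or 2. Atg9b and Vmp1, a lipid scramblase gene and a membrane gene of autophagosome formation, rose by 0.65 and 0.39 and were also higher than the second control. The initiating kinase Ulk2 was lower than both controls (-0.36 and -0.17). Wdfy3, an aggregate adaptor, read 9.46, 9.48 and 9.45 with loxapine and 9.96, 9.91 and 9.67 with vehicle (-0.38, adjusted p = 0.0003), but 9.32 to 9.44 in the second control, just below the loxapine samples. Map1lc3b, which encodes the autophagosome marker LC3, differed by -0.045 with a 95% interval of -0.15 to 0.064, and the receptor gene Sqstm1 by 0.14 (-0.044 to 0.33), neither of them called.

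The promoters of Gla and Ctsd are shown because these genes had the largest rises among called list members that hold TCACGTGA. The match was thus part of the choice. TCACGTGA is a palindromic core of the element bound by TFEB, and it therefore reads the same on both strands. It was found in 0.803% of all promoters and 1.5% of those of the genes tested, in 3 of 39 of the lysosomal list, 1 of 34 of the autophagy list and 1 of 13 of the vacuolar ATPase list. The Gla stretch is chrX:134601215-134601244 on the minus strand and holds 1 of the 2 matches, at position -228 from the start. The Ctsd stretch is chr7:142387908-142387937 on the minus strand with the match at -99.
Gla: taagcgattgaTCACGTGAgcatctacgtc
Ctsd: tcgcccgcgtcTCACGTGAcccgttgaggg

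**Figure D3:**
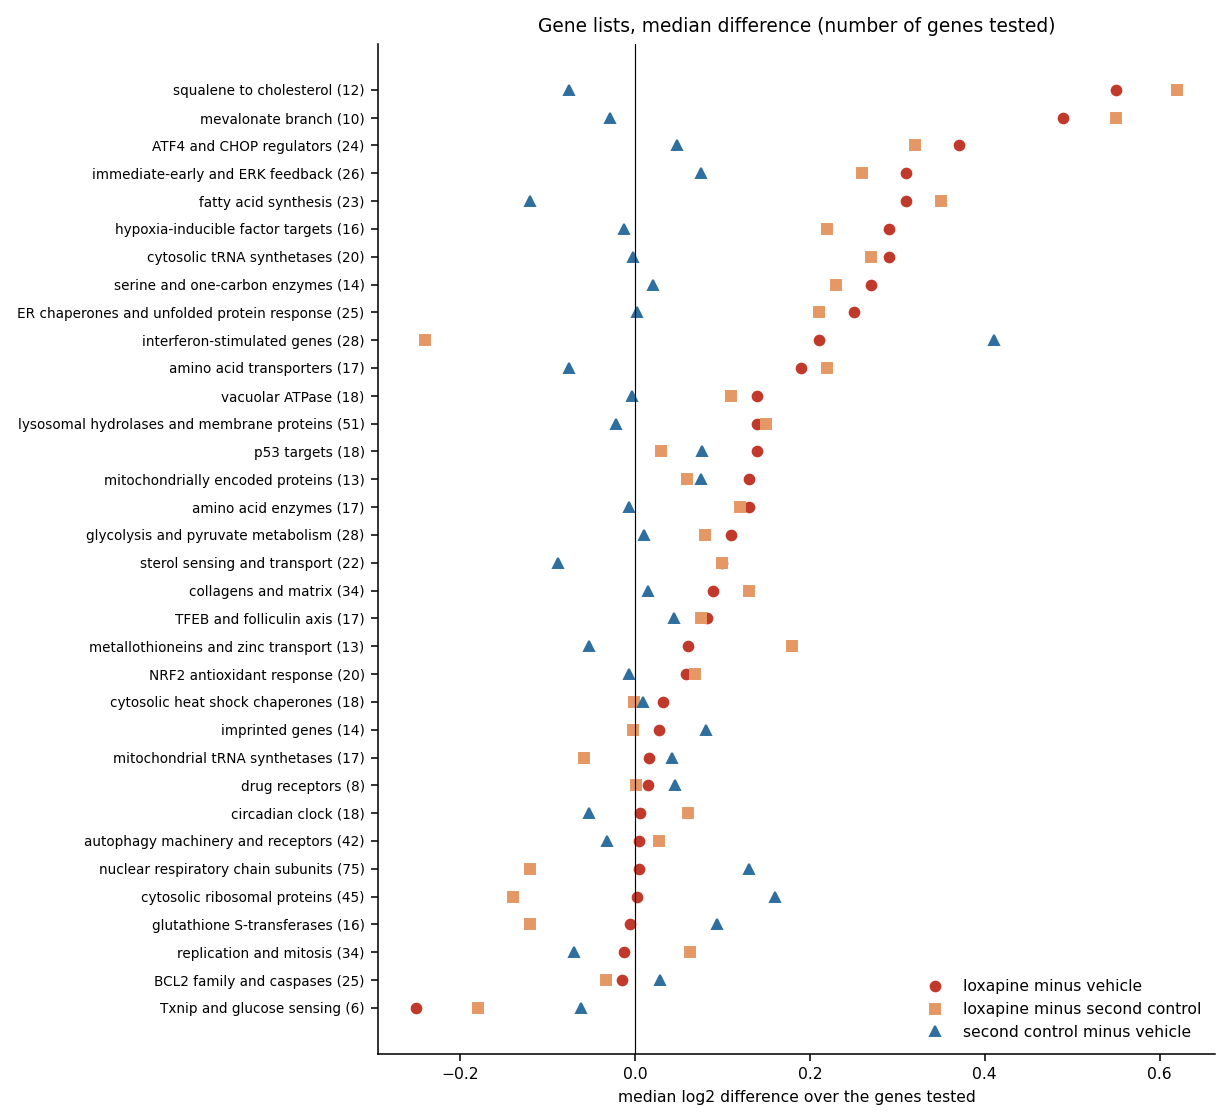
Median log2 difference over the tested genes of each of 34 gene lists, for loxapine minus vehicle (red circles), loxapine minus second control (orange squares) and second control minus vehicle (blue triangles), with the number of genes tested in brackets. The mevalonate and squalene lists stand farthest right in both loxapine comparisons, at 0.49 to 0.62, and the interferon list changes side between them, at 0.21 and -0.24.

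Glucose and hypoxia genes held some of the larger single rises. Of 16 targets of hypoxia-inducible factor 9 were higher and none lower than with vehicle (median 0.29), and 8 were higher than both controls. Vegfa, the endothelial growth factor, read 8.75, 9.01 and 8.91 with loxapine and 7.92, 7.96 and 7.98 with vehicle (0.94 ± 0.10, adjusted p = 6.5e-08). The loxapine samples lay above all controls, the second control reading 7.81 to 8.08. Of 28 genes of glycolysis and pyruvate metabolism 7 were higher and 2 lower (median 0.11), and all 9 were called the same way against the second control. Hk2, a hexokinase, read 7.94, 8.33 and 8.40 against 7.52, 7.42 and 7.33 (0.80 ± 0.14, adjusted p = 5.4e-05), the lactate carrier Slc16a1 rose by 0.52 and the glucose carrier Slc2a1 by 0.40. The count of 7 became 3 without loxapine replicate 2 and 10 without loxapine replicate 1, and against both controls it became 2 and 10.

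Txnip, an inhibitor of glucose uptake that glucose itself induces (chr3:96557957-96561883, plus strand), read 9.77, 9.93 and 9.97 with loxapine, 10.56, 10.55 and 10.68 with vehicle and 10.36 to 10.53 in the second control. The 3 groups did not overlap, and it fell by 0.71 against vehicle and by 0.52 against the second control on the log2 scale (adjusted p = 1.1e-05 and 6.9e-05). Its paralog Arrdc4 was lower, at -0.41, and of the 6 genes of this list 3 were lower and 1 higher. None of the 13 mitochondrially encoded protein genes was called against either control. Of 75 nuclear respiratory chain entries 3 were lower than with vehicle (median 0.0043), namely Atp5a1 at -0.17, Sdha at -0.15 and Ndufs1 at -0.14. None of the list was lower without vehicle replicate 1 and 1 was without loxapine replicate 2 or 3, and with only the compared conditions in the fit all 3 calls were lost. Against the second control 13 were lower and the median was -0.12, and the second control stood above vehicle with 5 higher and a median of 0.13.

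Redox and metal genes were called in both directions, beside 10.1% higher and 11.8% lower of all genes tested. Of 20 NRF2 antioxidant genes 4 were higher (20%) and none lower than with vehicle (Slc7a11, Taldo1, Srxn1 and Gsr), with a median of 0.058. The count of 4 became 2 without loxapine replicate 2 or 3 and 1 without vehicle replicate 2. Of 16 glutathione S-transferases 1 was higher (6.25%) and 3 lower (18.8%), not far from the shares of all genes for so short a list. All 4 were called the same way against the second control. Without vehicle replicate 3 the count was 2 higher and 1 lower. Gstm1 (chr3:108012255-108017973, minus strand) read 9.55, 9.54 and 9.49 with loxapine and 10.20, 10.23 and 10.41 with vehicle, and the second control lay at 10.30 to 10.54. It fell by 0.75 ± 0.12 (adjusted p = 1.1e-05), Mgst3 stood lower at -0.43 and Gstm2 at -0.25, and Gsto1 was higher by 0.34. The Mgst3 call was lost without vehicle replicate 3, and that of Gstm2 without vehicle replicate 3 or loxapine replicate 3 (-0.33 to -0.13 over the 6 fits). Members of the Gstm cluster are close copies, and how their reads were divided could shift these values.

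Of 13 metallothionein and zinc transport genes 5 were higher (38.5%) and 3 lower (23.1%) than with vehicle. The same 8 were called that way against the second control, where 8 were higher and 3 lower. The 3 lower than both became 1 without loxapine replicate 3. Mt1, a zinc-buffering protein gene, read 11.56, 11.14 and 11.09 with loxapine and 11.45, 11.75 and 11.95 with vehicle (-0.45 ± 0.12, adjusted p = 0.0048). The zinc importer Slc39a10 read 8.20, 9.19 and 9.04 against 8.20, 8.03 and 7.75 (0.82 ± 0.18), and the exporter Slc30a1 read 6.73, 5.78 and 6.21 against 6.73, 6.89 and 6.85 (-0.58 ± 0.15). For all 3 genes loxapine replicate 1 lay inside or at the edge of the vehicle range and the other loxapine samples lay outside it.

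Growth factor response genes were higher for most of their list. Of 26 immediate-early and ERK feedback genes 15 were higher and none lower than with vehicle (median 0.31), and 15 were higher than both controls. The count against both controls became 10 without loxapine replicate 1 and was 14 to 16 without any other of the 6 samples. Fosl1, a subunit of the AP-1 transcription factor, read 8.28, 8.55 and 8.45 with loxapine, 7.21, 7.32 and 7.41 with vehicle and 7.51 to 7.78 in the second control. The 3 groups again did not overlap, with a difference of 1.11 ± 0.13 against vehicle (adjusted p = 3.3e-07) and 0.76 against the second control, and the second control was higher than vehicle by 0.35 (adjusted p = 0.041). Dusp6, Dusp4 and Dusp5, phosphatases that switch ERK and its relatives off, rose by 0.77, 0.73 and 0.65, the factor Etv4 by 0.84 and the orphan nuclear receptor gene Nr4a1 by 0.97. Maff, a small partner of NRF2 and AP-1, rose by 0.98.

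Spp1, which encodes the matrix and cytokine-like protein osteopontin (chr5:104435118-104441050, plus strand), had the largest rise from vehicle of the genes named here. It read 10.17, 9.98 and 10.01 in the loxapine samples, 8.32, 8.55 and 8.54 in the vehicle samples and 8.73 to 8.90 in the second control. The groups did not overlap and the difference was 1.58 ± 0.16 against vehicle (adjusted p = 3.2e-08) and 1.25 against the second control (adjusted p = 3e-08). Ptgs2, the inducible enzyme of prostaglandin synthesis (chr1:150100031-150108227, plus strand), read 10.07, 9.74 and 9.80 against 8.41, 8.59 and 8.36. Its second control samples, at 8.29 to 8.55, overlapped vehicle and not loxapine, and the difference was 1.41 ± 0.18 (adjusted p = 7.2e-07). Ccl2, a chemokine for monocytes, rose by 1.05, Grem1, an antagonist of bone morphogenetic proteins, by 1.04, Igfbp7, a binding protein of insulin-like growth factors, by 1.01, and the brain-type creatine kinase gene Ckb by 1.09. Of 34 collagen and matrix genes 10 were higher and 3 lower, among them Ctgf at 0.97 and Tnc at 0.93, with 9 higher and 3 lower against both controls. The 3 lower than vehicle, the collagen genes Col6a1, Col6a2 and Col11a1, became 1 without loxapine replicate 2 or 3 or vehicle replicate 1 or 3, and 4 without loxapine replicate 1.

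The largest falls were in genes of varied function. Cyp26b1, which degrades retinoic acid (chr6:84571414-84593908, minus strand), read 6.94, 7.27 and 7.04 with loxapine and 8.30, 8.18 and 8.30 with vehicle. The second control read 8.21 to 8.70, all above the loxapine samples, and the gene fell by 1.18 against vehicle and by 1.31 against the second control on the log2 scale (adjusted p = 6.2e-06 and 3e-08). Peg10, an imprinted gene derived from a retrotransposon (chr6:4747306-4760517, plus strand), read 11.40, 11.40 and 11.44 against 12.46, 12.07 and 12.14, a difference of -0.81 ± 0.15 (adjusted p = 0.00016). Adnp, a chromatin regulator, read 7.25, 7.19 and 7.24 with loxapine, 8.20, 8.37 and 8.06 with vehicle and 7.46 to 8.21 in the second control, so its controls spread over a wide range without reaching the loxapine samples. Atoh8, a basic helix-loop-helix factor, was lower at -0.80, Sesn3, a stress-induced inhibitor of growth signaling, at -0.73, Npr3, the clearance receptor of natriuretic peptides, at -0.71, the aminopeptidase gene Enpep at -0.70 and the matrix gene Prelp at -0.69. Of the 12 largest rises and 12 largest falls under this choice, 23 of 24 were called in all 6 fits with 1 sample left out. Prelp was lost without loxapine replicate 3. The lack of overlap was part of the choice, so this stability was partly built in. Mt2, at -0.78 against vehicle, was not among the 24.

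Lists of cell division and cell death differed in their share of calls. Of all genes tested 10.1% were higher and 11.8% lower than with vehicle. Of 34 replication and mitosis genes only Mcm6, a subunit of the replicative helicase, was called (-0.18, adjusted p = 0.0039), and none was called against both controls. Of 18 p53 targets 6 were higher (33.3%) and 1 lower (5.56%), with a median of 0.14. Of those higher, 5 were also higher than the second control, or 3 without any 1 loxapine sample. Of 25 BCL2 family and caspase genes 3 were higher and 3 lower (12% each), near the shares of all genes. The 3 higher than both controls became 1 without loxapine replicate 3. The BH3-only genes, whose proteins start apoptosis, did not move together, since Pmaip1 rose by 0.39 (8.69, 8.63 and 8.63 against 8.29, 8.29 and 8.21) and Bmf and Bcl2l11 were lower, at -0.56 and -0.49. Of 18 circadian clock genes 5 were higher (27.8%) and 2 lower (11.1%). The repressor gene Bhlhe40 read 9.64, 9.55 and 9.57 against a vehicle mean of 8.98 ± 0.03 (0.60 ± 0.072, adjusted p = 2.4e-07). Of 14 imprinted genes 2 were higher (14.3%) and 3 lower (21.4%) than with vehicle, the latter 1 without loxapine replicate 2 or 3.

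Some markers of cell types were called. Of 8 striatal lineage markers tested 3 were lower than both controls, namely Foxp2 at -0.32, Dlx2 at -0.30 and Dlx1 at -0.20 against vehicle, and this count was 1 without loxapine replicate 1 or vehicle replicate 1. Of 4 neuron markers tested only Map2 was called against vehicle (-0.51, adjusted p = 0.032), in 1 of the 6 fits with 1 sample left out (-0.65 to -0.37), while Tubb3 read 4.64 ± 0.12 with loxapine and 4.52 ± 0.07 with vehicle. Tmem119, a microglial marker, read 8.15, 7.95 and 7.98 with loxapine and 7.44, 7.47 and 7.43 with vehicle. It was higher than vehicle by 0.58 and than the second control by 0.36 (adjusted p = 0.0016 and 0.021). The vascular growth factor receptor genes Flt1 and Kdr, 2 of 4 endothelial markers tested, were higher than vehicle by 0.49 and 0.31 and than the second control by 0.61 and 0.35. Of 4 microglia and macrophage markers tested, Csf1r was also higher than both controls (0.16 against vehicle), and Ptprc was lower than vehicle (-0.55) but not called against the second control. The Csf1r call held in 4 and the Ptprc call in 2 of the 6 fits with 1 sample left out. The summed level of the microglia and macrophage markers was 10.30 to 10.62 with loxapine and 10.70 to 10.95 with vehicle. This sum was made before taking log2 and is mostly Ptprc, which read 10.03 ± 0.18 with loxapine and 10.59 ± 0.15 with vehicle. Tmem119 went the other way, and Aif1, Cx3cr1 and P2ry12 lay near the floor, so the sum follows 1 gene and does not measure a cell type. The summed level of the endothelial markers was 8.72 to 9.28 with loxapine and 7.96 to 9.30 with vehicle. In such bulk samples fewer cells of a type and less RNA per cell cannot be told apart, and the part of these markers in the other results was not tested.

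Htt, the gene that carries the Q111 allele, depended on the control (chr5:34761740-34912534, plus strand). It read 7.64, 7.66 and 7.76 with loxapine and 8.10, 8.10 and 7.92 with vehicle. The second control read 7.64 to 7.93, so that it overlapped both loxapine and vehicle. Htt was lower than vehicle (-0.35 ± 0.077, adjusted p = 0.00092) and was not called against the second control (-0.07, 95% interval -0.21 to 0.066, adjusted p = 0.49), which was itself lower than vehicle (-0.28, 95% interval -0.42 to -0.15). The annotation places Msantd1 on the same strand within the same interval.

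Several other large differences from vehicle were of this kind. Lnpep, a membrane aminopeptidase gene, read 7.98 to 8.16 with loxapine and 8.94, 8.89 and 8.51 with vehicle (-0.73, adjusted p = 6.7e-06), but 7.89 to 8.22 in the second control (-0.066, adjusted p = 0.66). The kinesin gene Kif13b read 6.79, 6.76 and 6.77 against 7.65, 7.51 and 7.34, with the second control between 6.84 and 7.02. Soga1 and Svep1 were lower than vehicle (-0.63 and -0.54) and were not called against the second control. There Soga1 stood at -0.06 (95% interval -0.23 to 0.11) and Svep1 at -0.24 (-0.44 to -0.05). The Svep1 interval, which is not adjusted for the number of genes, lay wholly on the lower side. The long noncoding RNA Malat1 was higher than vehicle by 0.61 and differed from the second control by 0.13 (adjusted p = 0.49). For each of these genes the second control was called against vehicle in the same direction. Vehicle replicate 1 was the sample whose omission lowered the count of such calls most, to 334.

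The medians of the interferon-stimulated genes showed the same dependence on the control. Of 28 tested, 3 (Oas2, Cxcl10 and Oasl1, 10.7%) were higher than with vehicle, with a list median of 0.21. That share is near the 10.1% of all genes tested. None was called against the second control (median -0.24). In the second control 9 were higher than in vehicle (median 0.41), beside 3.69% of all genes tested. The count of 3 became 1 without loxapine replicate 2 or 3 or vehicle replicate 2 or 3, with Oas2 and Oasl1 called in 2 of the 6 fits each and Cxcl10 in all 6. Cxcl10, an interferon-induced chemokine, read 10.28, 10.43 and 10.37 with loxapine, 9.74, 9.39 and 9.63 with vehicle and 10.00 to 10.47 in the second control. The difference was 0.77 ± 0.21 against vehicle (adjusted p = 0.0068) and 0.14 against the second control (adjusted p = 0.63). The mean level of the list was 9.27, 9.47 and 9.49 in the loxapine samples, 9.28, 8.99 and 9.18 in the vehicle samples and 9.37 to 9.78 in the second control. The medians of cytosolic ribosomal protein genes also depended on the control, at -0.14 against the second control and 0.16 for the second control against vehicle. Of 45 tested, 0 were called against vehicle. Against the second control 7 were lower, beside 10.9% of all genes tested. In the second control 3 were higher than in vehicle, beside 3.69% of all genes tested. Their mean level spread from 11.78 to 12.15 over the 3 vehicle samples (11.97 ± 0.19) and averaged 11.97 ± 0.043 with loxapine.

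**Figure D4:**
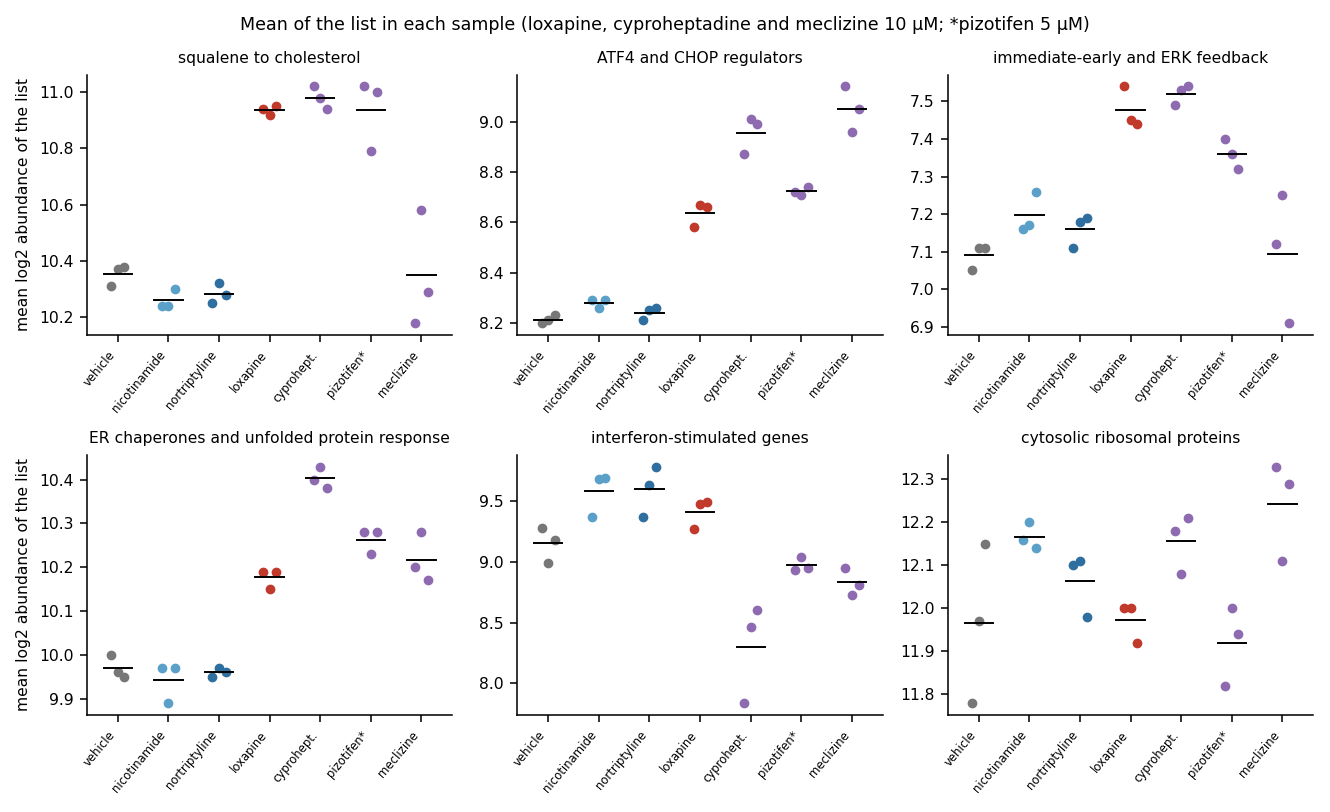
Mean log2 abundance of 6 gene lists in each sample of 7 conditions, with 1 point per sample and a black line at the mean of 3. For the squalene list the loxapine samples sit at 10.92 to 10.95 and the vehicle samples at 10.31 to 10.38, pizotifen was given at 5 µM, and the vertical axes do not start at 0.

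Cyproheptadine and meclizine, antihistamines given at the same 10 µM for 24 h, allow 2 comparisons at a matched dose and time, but neither shares a collection slot with loxapine, and the labels place cyproheptadine replicate 1 on day 3 like its replicate 3. Loxapine and cyproheptadine are both tricyclic, the former with a central oxazepine ring and a piperazine side group and the latter with a central carbocycle and a piperidine, whereas meclizine has a diphenylmethyl group on a piperazine and no fused ring system. Loxapine differed from cyproheptadine for 746 genes higher (5.56%) and 659 lower (4.91%), and from meclizine for 1563 higher (11.7%) and 1603 lower (12%). The 1405 calls against cyproheptadine became 893, 858 and 881 without loxapine replicates 1, 2 and 3 and 878 without cyproheptadine replicate 1. The 3166 calls against meclizine became 2108 without meclizine replicate 1 and 2009 without meclizine replicate 3.

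The sterol pathway separated meclizine from loxapine and did not separate cyproheptadine from it. All 12 genes from squalene to cholesterol and 9 of 10 of the mevalonate branch were higher with loxapine than with meclizine, by 0.29 to 0.84 for the former. None of these 22 genes was called against cyproheptadine, and the differences of the squalene list ran from -0.13 to 0.12. For Nsdhl the levels were 10.51 ± 0.06 (SD, n = 3) with loxapine, 10.48 ± 0.05 with cyproheptadine and 9.67 ± 0.25 with meclizine. The difference from cyproheptadine was 0.023 with a 95% interval of -0.16 to 0.21, and that from meclizine was 0.84 with an interval of 0.65 to 1.02. For Mvd the difference from cyproheptadine was -0.063 (-0.28 to 0.15). The squalene list averaged 10.94, 10.92 and 10.95 in the loxapine samples and 10.18, 10.58 and 10.29 in the meclizine samples, of which replicate 2 stood highest.

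Many genes of the ATF4 programme were lower with loxapine than with either antihistamine. Of 24 ATF4 and CHOP regulators 14 were lower and 1 higher with loxapine than with cyproheptadine (median -0.40), and 16 were lower and 1 higher than with meclizine (median -0.44). Of the 20 cytosolic tRNA synthetases 12 were lower in each comparison. Trib3 read 8.20 ± 0.12 with loxapine, 9.10 ± 0.09 with cyproheptadine and 9.63 ± 0.34 with meclizine, differences of -0.90 and -1.43 (adjusted p = 0.0038 and 2.4e-06). Cth, which makes cysteine from cystathionine, read 5.86 ± 0.14, 6.80 ± 0.16 and 7.24 ± 0.23 in that order, and was not called between loxapine and vehicle (0.27, adjusted p = 0.23). Slc7a11 was lower than with cyproheptadine (-0.97) and with meclizine (-1.32), and so was Chac1 (-0.69 and -0.53). Of the ER chaperone list 14 of 25 were lower than with cyproheptadine, whereas 6 were higher and 8 lower than with meclizine.

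Growth response and matrix genes ran the other way against meclizine. Of 26 immediate-early and ERK feedback genes 19 were higher and 1 lower with loxapine than with meclizine (median 0.45), and 1 was higher and 2 lower than with cyproheptadine (median 0.015). Spp1 was higher than with both, by 1.56 against meclizine and by 0.68 against cyproheptadine (adjusted p = 8.6e-09 and 0.0059). Ptgs2 read 9.87 ± 0.17 with loxapine, 9.98 ± 0.26 with cyproheptadine and 8.66 ± 0.49 with meclizine, and its difference from cyproheptadine was -0.11 with a 95% interval of -0.48 to 0.26. Ctgf, Tnc and Nr4a1 were higher than with meclizine by 1.41, 1.25 and 1.24. Replication and mitosis genes were higher for 22 of 34 than with meclizine (median 0.33) and for 1 of 34 than with cyproheptadine, and ribosomal protein genes were lower for 30 of 45 than with meclizine.

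**Figure D5:**
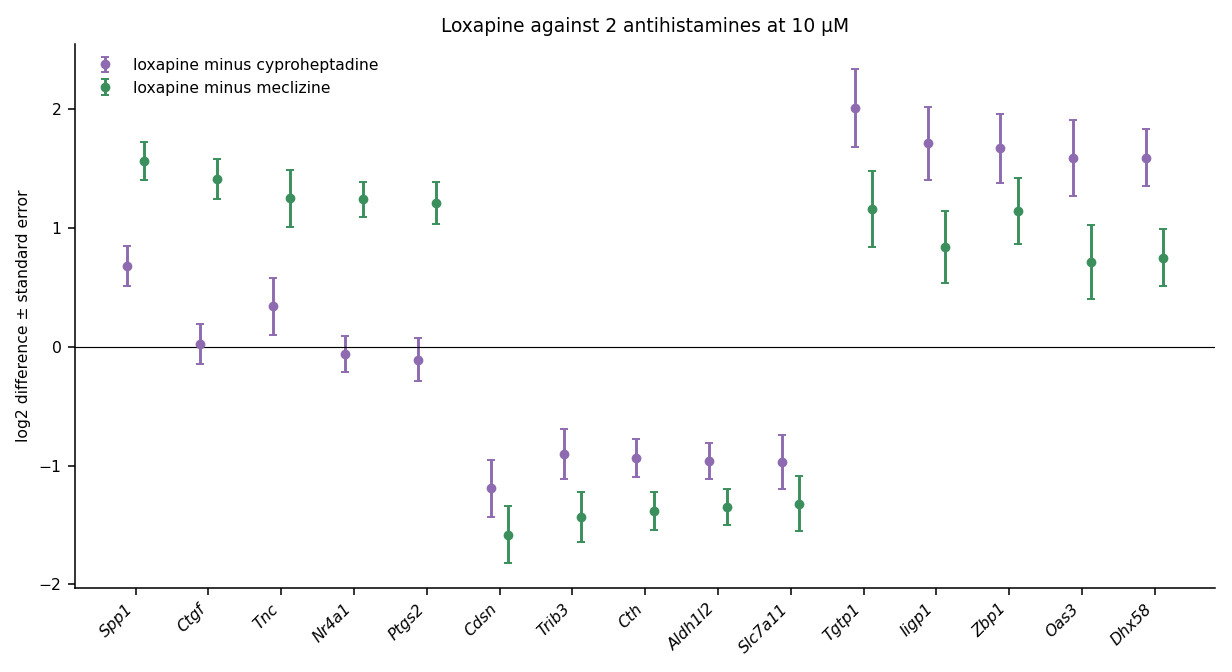
Log2 difference of loxapine minus cyproheptadine (purple) and loxapine minus meclizine (green), all at 10 µM, for the 15 genes with the largest called differences of either comparison, with bars of 1 standard error. Spp1 to Ptgs2 stand at 1.21 or more against meclizine, Cdsn to Slc7a11 lie below 0 in both comparisons, and Tgtp1 to Dhx58 lie above 0 in both.

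Interferon-stimulated genes were the clearest difference from cyproheptadine. With loxapine 27 of 28 were higher than with cyproheptadine (median 1.10) and 15 of 28 were higher than with meclizine (median 0.58), and none was lower in either. Tgtp1, a guanosine triphosphatase of antimicrobial defense with a near-identical neighbor copy, read 6.87 ± 0.27 with loxapine, 4.86 ± 0.22 with cyproheptadine and 5.71 ± 0.51 with meclizine. The difference from cyproheptadine was 2.01 ± 0.33 (adjusted p = 8.8e-05), and for Oas3, a sensor of double-stranded RNA, it was 1.59 with a 95% interval of 0.94 to 2.24. These genes were not called between loxapine and vehicle (0.60, adjusted p = 0.19, for Tgtp1 and 0.47, adjusted p = 0.31, for Oas3). The list averaged 7.84, 8.46 and 8.60 in the cyproheptadine samples, so replicate 1, the sample labelled with another day than its number, stood lowest there.

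Pizotifen, another tricyclic, was given at 5 µM and haloperidol, another antipsychotic, at 0.5 nM, so their values are only set beside those of loxapine. The median difference from vehicle of the squalene list was 0.55 with loxapine, 0.51 with pizotifen and 0.05 with haloperidol. That of the ATF4 and CHOP regulators was 0.37, 0.45 and 0.019 in the same order, and that of the interferon-stimulated genes 0.21, -0.18 and 0.0047.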

How the data were processed

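Polyadenylated RNA was sequenced from directional libraries as single-end reads. The authors trimmed reads with Trimmomatic 0.36, quantified the GRCm38.p5 transcriptome with RSEM and normalized with DESeq2. The deposited values are log2 abundances per gene. The name of the transformation is not given in the sources used here, low genes hardly vary, and counts were not used here. Genes with a symbol and a mean of at least 1 were tested (13409 of 18178) with limma 3.58.1 in R 4.3.3, on all 48 samples with condition and collection day as terms and 30 residual degrees of freedom. Named genes were the 12 largest rises and falls called against both controls with a mean of at least 6 and no overlap, up to 5 called genes per list, Htt, Hrh1, Map1lc3b, Sqstm1 and Tfeb, 4 rises and 4 falls that depended on the control, 5 each way against cyproheptadine and meclizine, and 2 promoters per motif. Ggps1, Hmgcs1, Drd1, Htr2a and others that complete a count were named after their values were seen. The lists were chosen with earlier results of these data known. Coordinates are from GENCODE M21. Same-day samples did not deviate together (mean correlations -0.196 to 0.0474), and the collection day in the labels was the block of the main fit. Alternatives left out single samples, conditions or terms, changed the minimum, or equalized sample medians, and list counts with 1 sample left out were added after the data were seen. Some genes are not reported here.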

Additional observations from a re-analysis of the deposited data

Results flagged for a closer look

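Among 2205 identifiers that the deposited table lists without a gene symbol, and which were kept out of the comparisons above, 13 were called against both controls in the same direction, 12 higher and 1 lower (0.59%). Among the genes tested the shares were 6.52% higher and 5.22% lower. The 13 are given here because the comparisons did not use these identifiers. GENCODE M21 names the largest as the pseudogene Gm45551, which read 7.63, 7.94 and 7.82 with loxapine and 6.91, 6.66 and 6.57 with vehicle (1.08 ± 0.13), and the noncoding RNAs Gm20186 at 0.92 and Slmapos2 at 0.78 against vehicle.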

How the results depend on the processing

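Depth is unknown and limits the low genes most. Over the alternatives that kept all samples, the count of genes called for loxapine against vehicle ran from 2692 to 3158. Leaving out 1 sample at a time gave 1715 to 2717 against vehicle, 1864 to 2893 against the second control, 334 to 1927 for the second control against vehicle, 990 to 1528 against both controls, 858 to 1250 against cyproheptadine and 2009 to 3188 against meclizine. With only the compared conditions in the fit, the count against cyproheptadine was 580, of which 68.1% were higher. With nortriptyline alone as second control 2038 genes were called for loxapine and 513 for the second control against vehicle. With sample medians made equal, 672 of 1651 calls of the second control against vehicle were higher (40.7% beside 30.3%). The replicate block gave 2965, 3096, 1654, 1592, 1512 and 3199 calls in the order of the ranges above, and it changed no call of a named gene. Hrh1 changed sign without vehicle replicate 2 (0.00625) or 3 (0.0104), over a range of -0.0358 to 0.0104, and Map1lc3b without vehicle replicate 3 (0.00767), over -0.0982 to 0.00767; neither was called in these fits.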
